A study of Mus musculus with 49 samples.

Results

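A set of 7 genes of the sterol pathway were followed across the neocortex of 49 mice: Hmgcs1, Idi1, Fdft1, Sqle, Lss and Dhcr7, which encode enzymes of cholesterol synthesis, and Insig1, which encodes a regulator of that synthesis. They were the 7 rows of these symbols among 45252 gene symbols in a count table of the RNA sequencing, and all 7 passed the filter on low counts with 18220 genes in all. No uptake receptor was among the 7, so uptake was read from a separate list of pathway genes. Each library came from 1 mouse, with 17775738 to 21033608 counts (median 19955601), and the lowest count of any of the 7 genes in any mouse was 181. Levels are given as counts scaled to a common library size (CPM) after TMM scaling, which corrects for library size and composition.

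The mice had a mixed C57BL/6J × C3H/HeJ background. Bigenic mice, called rNLS8, carried NEFH-tTA, in which the neurofilament heavy chain promoter drives the tetracycline transactivator in neurons, together with tetO-hTDP43∆NLS, human TDP-43 lacking the nuclear localization signal, expressed once doxycycline is removed. Monogenic controls carried tetO-hTDP43∆NLS without the driver. All mice received doxycycline until 25.5 weeks of age and were sampled at 28.5 weeks, 3 weeks after induction. All were injected from 8 weeks of age, 5 times before induction and 1 time after it. The ctrl-PBS group (17 monogenic mice, 10 of them female) and the TDP-PBS group (10 bigenic mice, 4 female) received PBS in place of the peptide conjugate. TDP-10+12 (10 bigenic mice, 6 female) received TDP-43 peptides 10 and 12, and TDP-15 (12 bigenic mice, 5 female) received peptide 15. The peptides were coupled to the carrier protein ovalbumin and injected with CpG oligonucleotide and Alhydrogel as adjuvants, at 40 µg per dose. Between immunized groups and TDP-PBS, an effect of the carrier cannot be told apart from one of the peptides. The controls differed from the bigenic mice in the driver as well as in the induced protein, so an effect of the driver alone cannot be told apart from one of TDP-43. Mouse Tardbp, which encodes TDP-43 itself and is repressed by TDP-43 protein, stood at 146 ± 9.27 CPM in the controls (mean ± SD, n = 17) and at 118 ± 14.05 CPM in TDP-PBS (n = 10, log2 fold change −0.30, adjusted p = 1.54e-06, edgeR's quasi-likelihood test).

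The brain makes nearly all of its own cholesterol, because lipoproteins of the blood do not cross the blood-brain barrier. Oligodendrocytes use it for myelin, astrocytes supply it to neurons on apolipoprotein E, and neurons dispose of it by hydroxylation. Transcription of the pathway is driven by the membrane-bound factor SREBP-2. When sterols are scarce, its escort SCAP carries it from the endoplasmic reticulum to the Golgi, where 2 proteases release its active part. When sterols are plentiful, INSIG proteins hold SCAP back and the target genes fall together.

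The genes lay on 6 chromosomes (coordinates of the GRCm38.p6 assembly, RefSeq). Hmgcs1 (chr13:119690351-119708260) and Idi1 (chr13:8885606-8892396) shared chromosome 13 but were not neighbours. Sqle lay at chr15:59315092-59331193, Dhcr7 at chr7:143823167-143848410 and Lss at chr10:76531565-76557139. Fdft1 (chr14:63145150-63181687) overlapped Ctsb by 774 bp at its end, and Ctsb did not pass the test (607 ± 45.8 CPM in TDP-PBS, 605 ± 44.5 in ctrl-PBS, adjusted p = 0.946). Lss overlapped 4930483K19Rik by 11269 bp, and Insig1 (chr5:28071412-28078662) overlapped Gm35223 over its full length. Neither of these partners was among the genes tested, and since the strand setting of the counting is not given in the sources used here, reads of such pairs cannot be told apart. Per kilobase of merged exons (GENCODE M21), the ctrl-PBS levels ran from 27.4 ± 2.50 CPM for Hmgcs1 and 22.5 ± 2.43 for Fdft1 through 13.7 ± 2.35 for Insig1, 6.93 ± 0.444 for Sqle, 6.61 ± 0.456 for Dhcr7 and 5.97 ± 0.656 for Idi1 to 2.61 ± 0.298 for Lss. The neighbours Sqle and Dhcr7, and Dhcr7 and Idi1, differed by less than the larger of their SDs. The place of Lss depends on its length, since its merged exons were the longest of the 7 genes, at 10787 bp beside 3505 bp for Idi1. Before division by length, Lss stood at 28.2 ± 3.22 CPM in ctrl-PBS, above Idi1 at 20.9 ± 2.30 CPM.

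Promoters of SREBP-2 targets are known for a sterol regulatory element beside sites for the factors NF-Y (a CCAAT box) and SP1 (a GC box). RefSeq promoter entries (GRCm38.p6) were found for 5 of the 7 genes: Hmgcs1, Idi1, Lss, Dhcr7 and Insig1. The 3 below are shown because Hmgcs1 was among the genes that fell most, Lss was the gene that did not pass the test, and Insig1 was the regulator. Each runs 5′ to 3′ on the plus strand from 250 bases before the start of transcription to the last base outside annotated exons. These are chr13:119690101-119690350 for Hmgcs1, chr10:76531355-76531564 for Lss and chr5:28071162-28071362 for Insig1. Capitals mark the matches, on either strand, to TCACNCCAC (sterol regulatory element), CCAAT and GGGCGG, none of which overlapped another.
Hmgcs1: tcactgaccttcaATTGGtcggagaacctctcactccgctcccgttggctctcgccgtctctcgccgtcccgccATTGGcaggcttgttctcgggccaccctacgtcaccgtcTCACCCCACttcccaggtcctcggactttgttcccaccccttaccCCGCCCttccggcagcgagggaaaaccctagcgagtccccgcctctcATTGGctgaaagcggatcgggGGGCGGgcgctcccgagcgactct
Lss: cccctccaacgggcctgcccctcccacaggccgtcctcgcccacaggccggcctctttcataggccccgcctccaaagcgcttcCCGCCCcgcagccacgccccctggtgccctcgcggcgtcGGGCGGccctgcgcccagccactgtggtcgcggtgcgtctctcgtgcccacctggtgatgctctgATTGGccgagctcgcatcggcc
Insig1: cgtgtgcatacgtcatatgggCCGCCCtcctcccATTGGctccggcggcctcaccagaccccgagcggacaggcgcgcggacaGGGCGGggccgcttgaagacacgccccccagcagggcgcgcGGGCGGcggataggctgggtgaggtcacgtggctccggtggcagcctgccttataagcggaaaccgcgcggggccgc

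In the 250 bases before each start, TCACNCCAC was found in Hmgcs1, 137 bases before the start, and in none of the other 4 genes with an entry. Of 32536 distinct promoter windows of this length, 1.04% held it, while 33.8% held CCAAT and 33.0% held GGGCGG. Hmgcs1 had 3 CCAAT boxes, Idi1 2, and Lss and Insig1 1 each, all on the minus strand. Of the 3 start sites listed for Dhcr7, the one at position 143830214 of chromosome 7 had 2 CCAAT boxes and 3 GC boxes, and the other two had no CCAAT box. A match of letters is not a measured binding site, and Lss with 1 CCAAT box and 2 GC boxes did not stand apart from Insig1, with 1 and 3, on these counts.

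The first question was whether these genes differed between bigenic and monogenic mice without immunization. In TDP-PBS against ctrl-PBS, 6 of the 7 genes fell and 1, Lss, did not pass the test. Over all 18220 genes tested, 43.5% were called in this comparison and 21.6% were called lower. Hmgcs1, Fdft1 and Sqle fell most, by 45.8%, 45.7% and 42.9%, and Idi1 fell by 36.3%. Insig1 and Dhcr7 fell less, by 22.3% and 21.6%. The median log2 fold change was −0.65 over the 7 genes and −0.00 over all genes tested.

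Hmgcs1 encodes the cytosolic HMG-CoA synthase, which makes the substrate of the rate-limiting reductase. Its lowest, median and highest levels were 103, 125 and 145 CPM in ctrl-PBS and 53.3, 69.7 and 88.3 CPM in TDP-PBS. All 10 TDP-PBS mice lay below every control, as was so for 2.58% of all genes tested. The same share stands beside Idi1, Fdft1 and Sqle below. The log2 fold change was −0.88 (SE 0.08, adjusted p = 1.01e-13).

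Idi1, the isomerase that makes the second of the 2 isoprene building blocks, ranged from 17.6 to 24.6 CPM in ctrl-PBS with a median of 20.7, and from 8.88 to 16.9 CPM in TDP-PBS with a median of 13.5. The groups did not overlap, and the log2 fold change was −0.65 (SE 0.09, adjusted p = 2.02e-08).

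Fdft1 encodes squalene synthase, the first enzyme committed to sterols. Its lowest, median and highest levels were 66.8, 96.1 and 111 CPM in ctrl-PBS and 43.3, 50.2 and 64.0 CPM in TDP-PBS. The groups did not overlap, although 1 control, at 66.8 CPM, came close. The log2 fold change was −0.88 (SE 0.06, adjusted p = 4.8e-17), the smallest adjusted p of the 7 genes in this comparison.

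Sqle encodes squalene epoxidase, a second control point of the pathway. It ranged from 34.9 to 42.9 CPM (median 38.3) in ctrl-PBS and from 17.7 to 27.1 CPM (median 22.4) in TDP-PBS. The groups were separated by a gap, and the log2 fold change was −0.81 (SE 0.07, adjusted p = 9.3e-15). Of all genes tested, 2.58% had every TDP-PBS mouse below every control.

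Lss, lanosterol synthase, closes the first sterol ring system from the product of squalene epoxidase. It ranged from 23.7 to 34.3 CPM (median 28.5) in ctrl-PBS and from 20.4 to 31.4 CPM (median 27.4) in TDP-PBS, so 8 of 10 TDP-PBS mice lay within the control range. Its log2 fold change was −0.09 (SE 0.06, adjusted p = 0.264), with a 95% interval from −0.22 to 0.04. That interval did not reach the point estimate of any of the other 6 genes.

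Dhcr7 encodes the reductase of the last step to cholesterol. It ranged from 34.5 to 43.7 CPM (median 38.1) in ctrl-PBS and from 25.4 to 35.3 CPM (median 30.0) in TDP-PBS. In TDP-PBS, 9 of 10 mice lay below every control, and the log2 fold change was −0.35 (SE 0.05, adjusted p = 1.25e-07). Insig1, the anchor that retains SCAP and is itself a target of SREBP, ranged from 27.9 to 54.4 CPM (median 41.2) in ctrl-PBS and from 27.5 to 40.5 CPM (median 31.4) in TDP-PBS. Its controls had the widest relative spread of the 7 genes, with a coefficient of variation of 17.1%, and only 2 of 10 TDP-PBS mice lay below every control. The log2 fold change was −0.36 (SE 0.09, adjusted p = 0.000739).

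**Figure D1:**
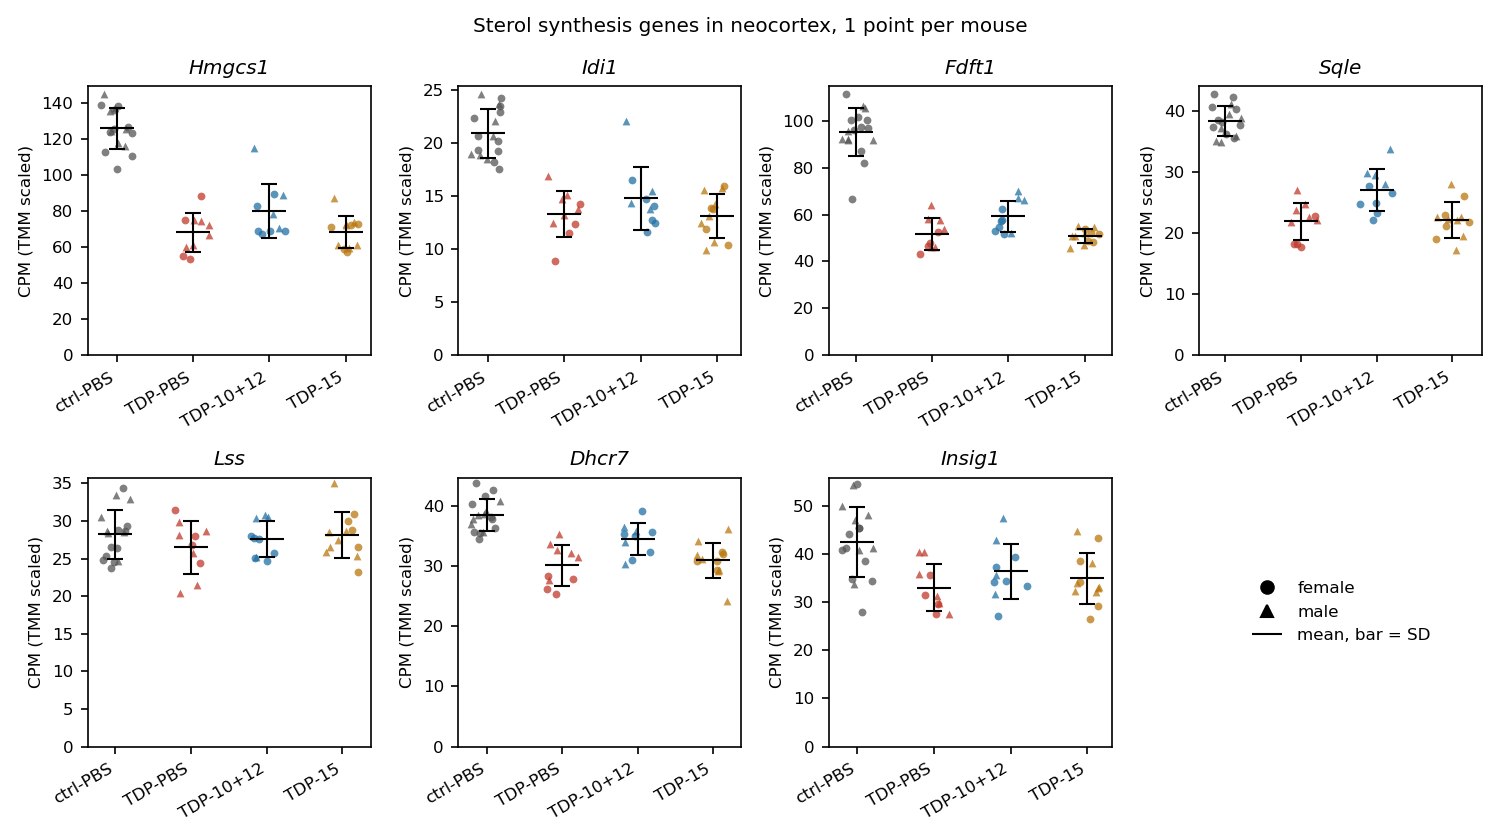
Level of each of the 7 genes (vertical axis, CPM, from 0) in each of the 49 mice by group, with circles for females, triangles for males, and the mean with SD in black. In Hmgcs1, Idi1, Fdft1 and Sqle the 10 TDP-PBS mice sit below all 17 controls, while the groups overlap throughout for Lss.

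The sexes were compared for TDP-PBS against ctrl-PBS. Fits within a sex held every group of that sex, and the interaction test held the 27 PBS-treated mice alone. The 6 genes fell in females and in males taken alone. The fall of Sqle was −1.01 (log2) in 14 females and −0.66 in 13 males, from 39.0 ± 2.43 to 19.2 ± 2.37 CPM (n = 10 and 4) in females and from 37.6 ± 2.43 to 23.7 ± 1.96 CPM (n = 7 and 6) in males. For Dhcr7 the values were −0.50 and −0.25. The difference between the sexes was 0.35 (SE 0.09, p = 0.00083, adjusted p = 0.741) for Sqle and 0.26 (SE 0.09, p = 0.00673, adjusted p = 0.741) for Dhcr7 in edgeR's interaction test. None of the 17363 genes tested for an interaction was called (0%), and 1097 had an unadjusted p under 0.05.

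The second question was whether the genes differed from controls in the immunized mice too. Each of these comparisons used the same 17 controls, so they are not independent of the one above. In TDP-10+12, 6 of 7 genes were lower than in ctrl-PBS, where 40.8% of all genes were called and 20% were called lower. The log2 fold changes were −0.66 for Hmgcs1, −0.50 for Idi1, −0.68 for Fdft1, −0.51 for Sqle, −0.16 for Dhcr7 (adjusted p = 0.0111) and −0.22 for Insig1 (adjusted p = 0.0384), and −0.03 for Lss (adjusted p = 0.711). In TDP-15, 6 of 7 were lower, where 46.9% of all genes were called and 23.2% were called lower. The log2 fold changes were −0.88 for Hmgcs1, −0.67 for Idi1, −0.90 for Fdft1, −0.80 for Sqle, −0.31 for Dhcr7 and −0.28 for Insig1 (adjusted p = 0.00472), and −0.01 for Lss (adjusted p = 0.942).

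Over the 32 bigenic mice together, Sqle was below every control in 32, Hmgcs1 and Idi1 in 31, Fdft1 in 30, Dhcr7 in 24, Insig1 in 4 and Lss in 3. Of all genes tested, 2.59% had every TDP-10+12 mouse below every control, and 3.08% had every TDP-15 mouse there. The share for all 32 mice together was not computed. The mouse above the lowest control was the same for Hmgcs1 and Idi1, mouse 301 of TDP-10+12, a male. It had 114.9 CPM of Hmgcs1 and 22.1 CPM of Idi1, where the next mouse of its group had 89.5 and 16.5 CPM. It was also the highest of its 10 mice for Sqle, Fdft1 and Insig1, and for Gfap at 1133 CPM, where the group median was 299 CPM. The part of this mouse's other differences in its sterol genes was not tested. Without it, the fall of Hmgcs1 in TDP-10+12 was −0.72 and that of Idi1 was −0.57, and all 6 calls held.

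Some calls lay near the threshold. Dhcr7 in TDP-10+12 had an adjusted p of 0.0505 without mouse 51 of that group. For Insig1 in TDP-10+12 the log2 fold change was −0.22 (adjusted p = 0.0384). The adjusted p missed the threshold in 19 of 49 fits that left out 1 mouse, while the log2 fold change stayed between −0.26 and −0.17 over the 49 fits. It also missed it without a filter on low counts (−0.22, adjusted p = 0.0674) and without 14 libraries that held markers of neighbouring tissue (−0.15, adjusted p = 0.324). Those 14 libraries had over 100 CPM of summed choroid plexus markers or over 50 CPM of summed olfactory bulb markers, 3 of them in ctrl-PBS, 3 in TDP-PBS, 4 in TDP-10+12 and 4 in TDP-15. The choroid plexus limit was passed by 2, 3, 2 and 3 libraries of these groups in that order, and the olfactory bulb limit by 2, 0, 2 and 1. Insig1 in TDP-15 also missed the threshold without them (log2 fold change −0.20, adjusted p = 0.104). In TDP-PBS all 6 calls held without them, at −0.82 for Hmgcs1, −0.65 for Idi1, −0.88 for Fdft1, −0.78 for Sqle, −0.38 for Dhcr7 and −0.35 for Insig1. Lss stood at 0.00 in TDP-PBS, 0.03 in TDP-10+12 and 0.04 in TDP-15 without them.

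**Figure D2:**
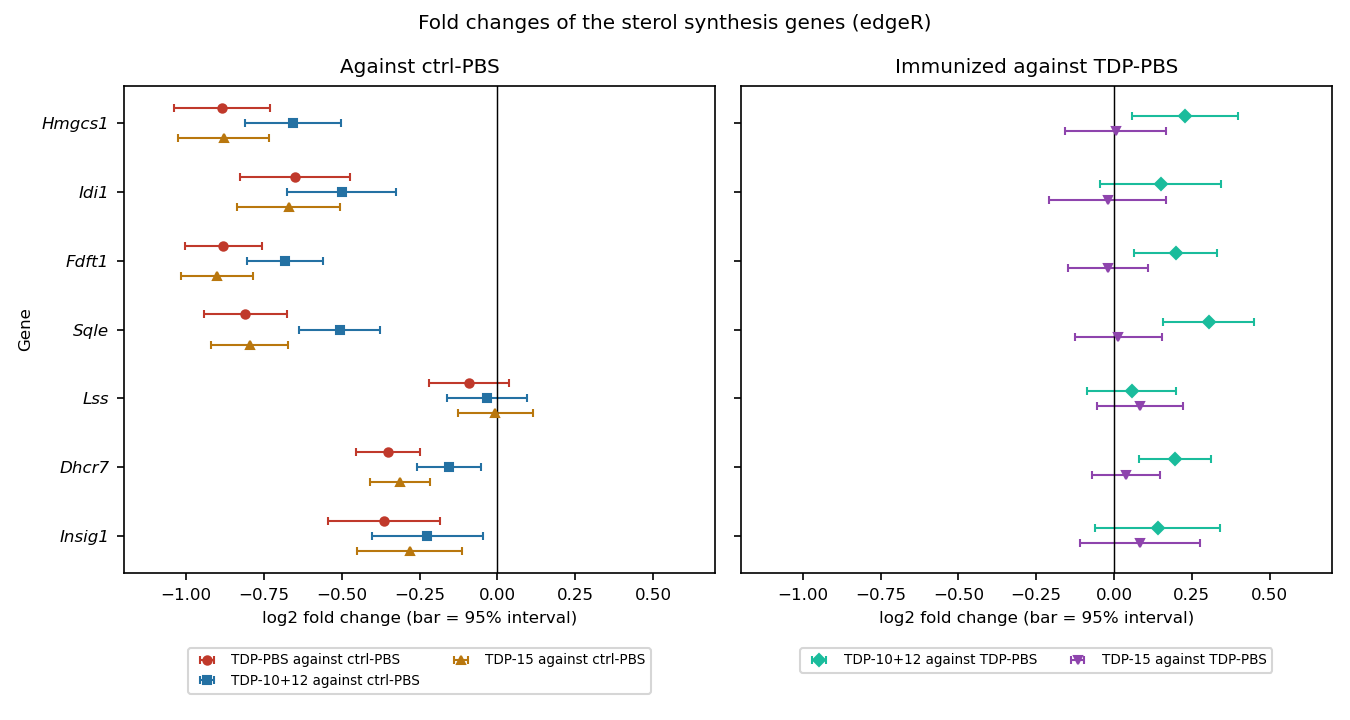
Log2 fold change (horizontal axis) with its 95% interval for each of the 7 genes, on the left for the 3 bigenic groups against ctrl-PBS and on the right for both immunized groups against TDP-PBS. On the left all intervals except those of Lss lie below 0, and on the right the TDP-10+12 intervals of Hmgcs1, Fdft1, Sqle and Dhcr7 lie above 0, though no adjusted p passed the threshold.

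The third question was whether immunization moved the genes among the bigenic mice. In TDP-10+12 against TDP-PBS, no gene of the 7 was called, and none of the 18220 genes was (0%) with edgeR, while 953 (5.23%) had an unadjusted p under 0.05. All 7 log2 fold changes were positive, from 0.06 to 0.30, with a median of 0.20 against −0.00 over all genes. Of the 7 genes, 4 had an unadjusted p under 0.05 and were higher, where 3.08% of all genes were. Sqle was at 27.1 ± 3.47 CPM (n = 10) in TDP-10+12 and 21.9 ± 3.08 CPM (n = 10) in TDP-PBS, a log2 difference of 0.30 (95% interval 0.16 to 0.45, p = 0.000111, adjusted p = 0.38). It ranked 5 of 18220 genes by p, and the mice of the groups overlapped, from 22.2 to 33.8 CPM and from 17.7 to 27.1 CPM. Dhcr7 differed by 0.20 (p = 0.0012, adjusted p = 0.71), Fdft1 by 0.20 (p = 0.00489, adjusted p = 0.897) and Hmgcs1 by 0.23 (p = 0.00938, adjusted p = 0.907). Without mouse 301 the values were 0.26 for Sqle, 0.19 for Dhcr7, 0.17 for Fdft1 and 0.16 for Hmgcs1. Some marker lists also lay wholly on 1 side of 0 in this comparison, with no marker called. The lists of general neurons, inhibitory neurons, astrocytes, endothelium, oligodendrocyte precursors and newly formed oligodendrocytes had values on both sides. All 8 markers of mature oligodendrocytes (median −0.10), all 7 of microglia (−0.09) and all 6 of excitatory neurons (−0.14) were negative, and all 4 of choroid plexus (0.57) and all 4 of olfactory bulb (1.28) were positive. Their part in the differences of the 7 genes was not tested beyond leaving out the 14 libraries with neighbouring tissue, where the values were 0.34 for Sqle, 0.24 for Dhcr7, 0.17 for Fdft1 and 0.22 for Hmgcs1.

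In TDP-15 against TDP-PBS, the log2 differences of the 7 genes lay between −0.02 and 0.08, and their 95% intervals between −0.21 and 0.27. None of the 7, and none of all genes (0%), was called with edgeR, and 552 (3.03%) of all genes had an unadjusted p under 0.05. Sqle stood at 22.2 ± 2.94 CPM (n = 12) in TDP-15 and at 21.9 ± 3.08 CPM in TDP-PBS, and Hmgcs1 at 68.4 ± 8.79 and 68.2 ± 10.9 CPM. TDP-10+12 against TDP-15 gave log2 differences of 0.29 for Sqle (p = 0.000111, adjusted p = 0.252), 0.22 for Hmgcs1 (p = 0.00801), 0.22 for Fdft1 (p = 0.00136) and 0.16 for Dhcr7 (p = 0.00583). No gene was called in that comparison either (0%), and 1244 (6.83%) had an unadjusted p under 0.05 with edgeR, 3.82% of all genes with a higher level in TDP-10+12. It shares its mice with the comparisons above.

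Set in order, the mean levels of Hmgcs1, Sqle, Idi1, Fdft1 and Dhcr7 were highest in ctrl-PBS and next highest in TDP-10+12, and TDP-PBS and TDP-15 were lowest and within 1 SD of each other. For Hmgcs1 and Idi1, TDP-10+12 also differed from both by less than its own SD. The mean distance of the 7 genes from the control mean, in log2 CPM per mouse, was −0.58 ± 0.12 (SD, n = 10) in TDP-PBS, −0.40 ± 0.13 (n = 10) in TDP-10+12 and −0.55 ± 0.11 (n = 12) in TDP-15. It ranged from −0.78 to −0.41 in TDP-PBS, from −0.52 to −0.10 in TDP-10+12 and from −0.70 to −0.29 in TDP-15, while controls ranged from −0.15 to 0.21. No bigenic group overlapped the controls in this mean except TDP-10+12, through mouse 301.

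The rest of the synthesis pathway was read from a list of 21 other sterol synthesis enzymes, of which 19 were tested. In TDP-PBS, 10 of the 19 fell, 2 rose and 7 did not pass the test, and the list's median log2 fold change was −0.15. Of all genes, 21.6% were lower in that comparison and 21.9% higher. The enzymes that fell came from the early and the late steps. Among them were Fdps, which makes farnesyl diphosphate just before squalene synthase (−0.57), Mvd, the mevalonate diphosphate decarboxylase (−0.45), and Acat2, the thiolase at the entry (−0.17). After lanosterol came Tm7sf2 (−0.60), a sterol reductase, Msmo1 (−0.59) and Nsdhl (−0.41), which remove the C4 methyl groups, and Sc5d (−0.25), a desaturase. Msmo1 was at 60.5 ± 4.91 CPM (n = 17) in ctrl-PBS and 40.1 ± 6.88 CPM (n = 10) in TDP-PBS, with no overlap. As given above, 2.58% of all genes had every TDP-PBS mouse below every control. Tm7sf2 overlaps Vps51, which was at −0.08 (adjusted p = 0.26).

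Enzymes that rose were Nus1 (0.43), a subunit of the dolichol-forming prenyltransferase, and Erg28 (0.17), a scaffold of C4 demethylation. Dhdds, the partner of Nus1, was lower at −0.15. Cyp51, the demethylase that follows Lss, was at −0.15 (adjusted p = 0.162) and Mvk, mevalonate kinase, at −0.02 (adjusted p = 0.782). In TDP-10+12 8 of 19 fell and 2 rose, where 20% of all genes were lower and 20.8% higher. In TDP-15 10 fell and 2 rose, where 23.2% were lower and 23.6% higher. Across the 3 groups, which share their controls, 8 of 19 were lower in every one, where 16.1% of all genes were, and 6 were called in none, where 44.5% of all genes were.

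The regulators were read from a list of 14 genes of the SREBP machinery. In TDP-PBS 4 fell and 3 rose, with a median of −0.00, so that the share called was near the 43.5% of all genes called in that comparison (21.6% lower and 21.9% higher). Srebf2, which encodes SREBP-2, was at 223 to 267 CPM (median 243) in ctrl-PBS, 145 to 197 CPM (median 173) in TDP-PBS, 167 to 203 CPM (median 183) in TDP-10+12 and 155 to 190 CPM (median 169) in TDP-15. Every bigenic mouse lay below every control, and the log2 fold change in TDP-PBS was −0.50 (SE 0.04, adjusted p = 4.01e-15). Single groups lay wholly below the controls for 2.58% of all genes in TDP-PBS, 2.59% in TDP-10+12 and 3.08% in TDP-15. Nfyb, a subunit of NF-Y, fell by 0.59 on the log2 scale, Rnf145, a ubiquitin ligase, by 0.26, and Mbtps2, the second protease that releases SREBP, by 0.23. Srebf1, which encodes SREBP-1, rose by 0.24, Scap by 0.11 and Ufd1, a factor of protein degradation at the endoplasmic reticulum, by 0.52. Insig2, the second INSIG gene, stood at 0.01 (adjusted p = 0.91), beside −0.36 for Insig1.

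Of 19 genes of cholesterol uptake and transport tested in TDP-PBS, 3 fell and 6 rose, with a median of 0.07, and the share called was again near that of all genes. Stard4, a cytosolic sterol carrier, fell from 15.7 ± 1.78 CPM (n = 17) to 10.3 ± 1.42 CPM (n = 10), a log2 fold change of −0.61 (adjusted p = 4.05e-09), and Gramd1b, which moves cholesterol from the plasma membrane to the endoplasmic reticulum, by 0.27. Those that rose included Lrpap1, a chaperone of lipoprotein receptors (0.51), and the lysosomal cholesterol exporters Npc2 (0.36) and Npc1 (0.18).

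Of 8 genes of cholesterol turnover and storage, 1 fell and 2 rose, a share below the 43.5% of all genes. Cyp46a1, the neuronal 24-hydroxylase through which the brain disposes of cholesterol, was at 267 to 386 CPM (median 310) in ctrl-PBS and 209 to 269 CPM (median 234) in TDP-PBS. In TDP-PBS 9 of 10 mice lay below every control, and the log2 fold change was −0.40 (SE 0.06, adjusted p = 2.16e-07). Ch25h, an inducible 25-hydroxylase of myeloid cells, was at 0.366 ± 0.215 CPM in ctrl-PBS and 0.878 ± 0.4998 CPM in TDP-PBS (log2 fold change 1.25, adjusted p = 0.000857), a low level in every group. Soat1, which esterifies cholesterol for storage, rose by 0.23.

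**Figure D3:**
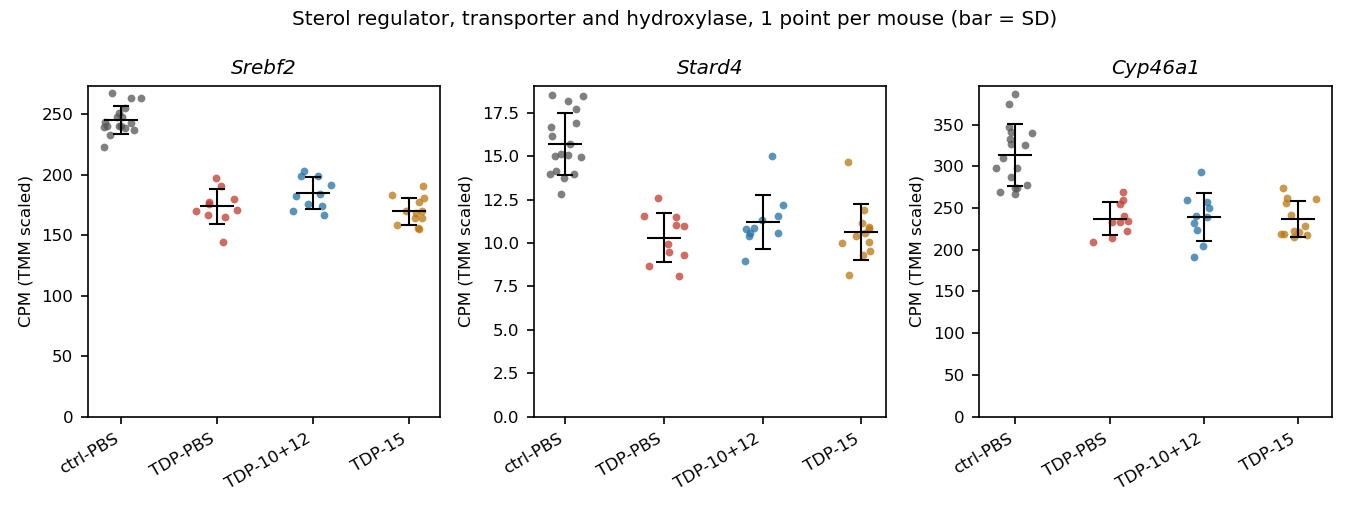
Level (vertical axis, CPM, from 0) of Srebf2, Stard4 and Cyp46a1 in each mouse by group, with the mean and SD in black. For Srebf2 all 32 bigenic mice sit below the 17 controls, and for Stard4 and Cyp46a1 the controls overlap with at most 1 mouse of each bigenic group.

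Fatty acid genes controlled by SREBP-1 were listed for comparison. Of 14 tested in TDP-PBS, 8 fell and 2 rose, with a median of −0.18, where 21.6% of all genes fell and 21.9% rose. Fasn, fatty acid synthase, fell by 0.50, the desaturases Scd1, Scd2 and Fads1 by 0.30 each, and Acss2, which makes acetyl-CoA from acetate, by 0.39 (adjusted p = 0.0443). Acacb, the mitochondrial acetyl-CoA carboxylase, rose by 0.43. In TDP-10+12 4 fell and 1 rose, a share called below the 40.8% of all genes (20% lower and 20.8% higher). In TDP-15 7 fell and 2 rose, where 23.2% of all genes were lower and 23.6% higher. None of the 5 lists had a gene called between bigenic groups with edgeR.

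**Figure D4:**
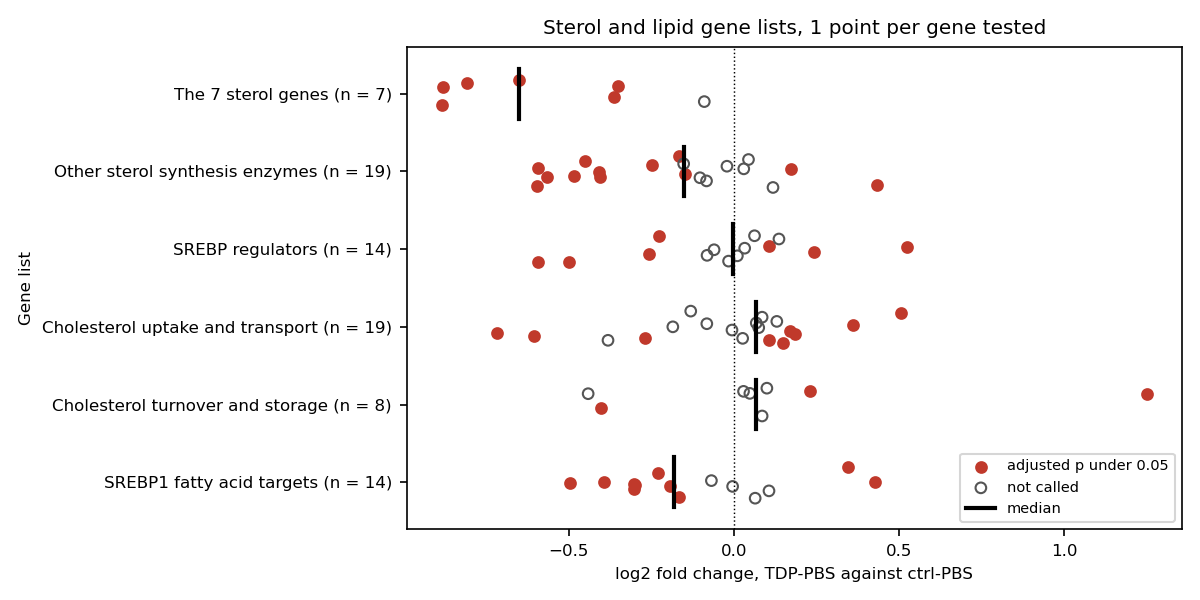
Log2 fold change in TDP-PBS against ctrl-PBS (horizontal axis) of each gene tested, by list, with filled points for an adjusted p under 0.05, open points for genes not called and a bar at each list's median. The 7 genes have a median of −0.65, the other sterol synthesis enzymes −0.15, and the uptake and turnover lists 0.07 each.

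Cell type markers were read beside these results, since in bulk tissue fewer cells of a type and less RNA per cell cannot be told apart. Over all genes, 21.6% were lower and 21.9% higher in TDP-PBS, and lists of 4 to 8 markers are short to set against these shares. Of 6 general neuron markers, 4 fell and 1 rose in TDP-PBS. Their summed level was 6618 to 8632 CPM in ctrl-PBS and 5237 to 6589 CPM in TDP-PBS, without overlap. Of single genes tested, 2.58% had every TDP-PBS mouse below every control. Snap25, the largest part of the sum, fell from 2682 ± 263 to 1673 ± 122 CPM. The markers were not uniform, since Thy1 rose from 1250 ± 103 to 1626 ± 150 CPM and Rbfox3 stood at 456 ± 37.9 and 439 ± 34.3 CPM. Of 6 markers of inhibitory neurons 4 fell and none rose, with sums of 864 to 1125 CPM and 720 to 1075 CPM. Of 6 markers of excitatory neurons 2 fell and 1 rose, with sums of 5440 to 8218 CPM and 4106 to 6147 CPM. Of 8 markers of mature oligodendrocytes, none fell and 1 rose. Their sums were 3514 to 6441 CPM in ctrl-PBS and 3994 to 5755 CPM in TDP-PBS. Of 7 astrocyte markers 2 fell and 2 rose, among the latter Gfap (log2 fold change 1.64), and their sums were 2144 to 2790 CPM and 1883 to 2684 CPM. Of 7 microglia markers 5 rose and none fell, and their sums were 230 to 265 CPM in ctrl-PBS and 281 to 403 CPM in TDP-PBS. Of 6 markers of oligodendrocyte precursors 1 rose and none fell, of 6 endothelial markers 1 rose and none fell, and none of 4 markers of newly formed oligodendrocytes was called. Markers of tissue next to the neocortex also differed. Of 4 olfactory bulb markers 3 fell, with a median log2 fold change of −2.16, and their sums were 7.76 to 193 CPM in ctrl-PBS and 9.72 to 23.9 CPM in TDP-PBS. The median sums were alike, at 14.1 CPM in ctrl-PBS and 14.2 CPM in TDP-PBS. Over 50 CPM lay 2 libraries of ctrl-PBS and 0 of TDP-PBS. None of 4 choroid plexus markers was called, but all 4 were at positive values, with a median of 0.87 and sums of 8.42 to 348 CPM and 8.29 to 1249 CPM. The part of these shifts in the fall of the sterol genes was not tested beyond leaving out the 14 libraries with neighbouring tissue. As given above, all 6 calls in TDP-PBS held in that fit. The part of the shifts in neuron and glia markers was not tested.

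How the 7 genes varied among mice of the same group was described by correlations of log2 CPM after the group means were taken away. Over the 49 mice, Pearson's r of the 21 pairs ran from −0.21 (Idi1 and Lss) to 0.75 (Hmgcs1 and Idi1), with a median of 0.21. The pairs share libraries and their scaling. Hmgcs1, Idi1 and Sqle had r of 0.57 and 0.64 for the other two pairs among them, and Fdft1 had 0.34 to 0.48 with them. Lss varied with Insig1 (0.41) and with none of the other 5 genes above 0.03. Against the mean of the other 6 genes, r was 0.64 for Idi1, 0.62 for Sqle, 0.57 for Hmgcs1, 0.44 for Fdft1, 0.32 for Insig1, 0.27 for Dhcr7 and 0.01 for Lss. The order differed between groups. In the 17 ctrl-PBS mice alone the values were 0.54 for Fdft1, 0.50 for Hmgcs1, 0.39 for Idi1, 0.26 for Lss, 0.22 for Insig1, 0.09 for Sqle and 0.06 for Dhcr7. In TDP-PBS, TDP-10+12 and TDP-15 they were 0.79, 0.78 and 0.71 for Sqle, 0.72, −0.06 and 0.23 for Dhcr7, and −0.38, −0.05 and 0.32 for Lss.

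**Figure D5:**
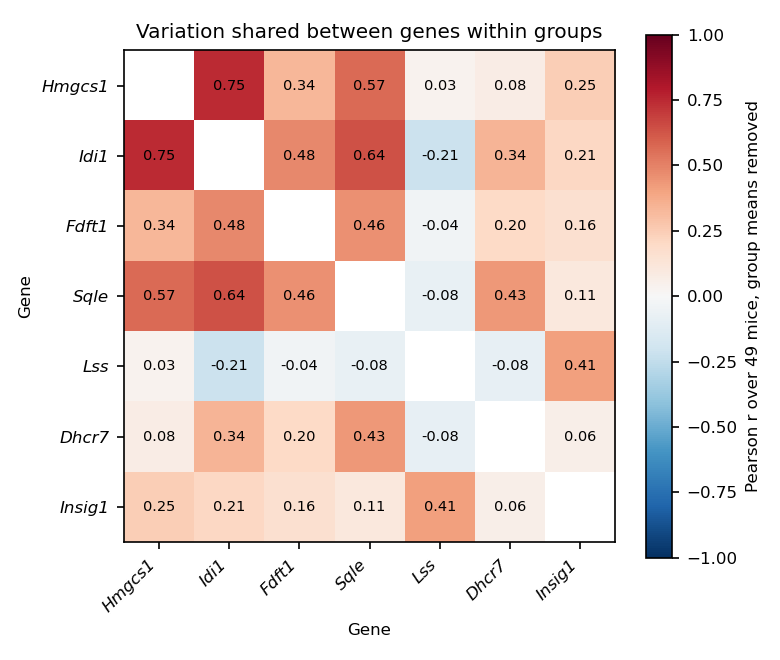
Pearson's r between each pair of the 7 genes over 49 mice, on log2 CPM with the mean of each group removed, with colour from −1 to 1. The highest values join Hmgcs1, Idi1 and Sqle (0.57 to 0.75), and the row of Lss lies near 0 or below except for Insig1 (0.41).

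Over the same mice, all genes tested were ranked by r to the mean of the 7. Among the 10 highest that are not of the 7 were Gm38481, a predicted gene (0.71), Stard4 (0.69), Msmo1 (0.69), Cyp51 (0.58) and Sc5d (0.55), together with Ttc19, Usp13, Alkbh8 and Vcpip1 (0.56 to 0.59). Within the 17 ctrl-PBS mice alone none of these was among the 10 highest, where Stard4 stood at 0.56 and Msmo1 at 0.26. Of the full 10, 0 were among the 10 highest within TDP-PBS alone, 1 within TDP-10+12 and 1 within TDP-15. Srebf2 had an r of 0.45 and Fdps of 0.49, while Tm7sf2, one of the enzymes that fell most, had −0.00.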

How the data were processed

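Neocortical RNA of 49 mice was sequenced as 100 bp read pairs. Raw counts per gene were deposited by the authors, who aligned the reads to GRCm38.p6 and normalized nothing in the table. The submitters' processing notes name mm10, HISAT, HISAT2, Bowtie, Bowtie2 and RSEM, and the role of each, the annotation and the strand setting are not given in the sources used here. Groups, sexes and animal numbers came from the labels, and every sample column was used.

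Low genes were removed with edgeR's filterByExpr (10 counts, total of 15). TMM factors were computed, and 1 model over the 49 mice, with group as its only term, was fitted by glmQLFit and tested two-sided by glmQLFTest (edgeR 4.0.16, R 4.3.3). P-values were adjusted by Benjamini-Hochberg over 18220 genes, and 0.05 was the threshold. The script was tested on counts simulated for TDP-PBS against ctrl-PBS. It recovered 56.1% of log2 changes of 0.25, 69.2% of those of 0.5 and 95.5% of those of 1, with 7 calls in error. Recovery between bigenic groups was not measured, so small differences there may be missed. Correlations used log2 CPM with a prior count of 2. The alternatives used DESeq2 1.42.0 and limma 3.58.1, other scalings, filters and samples, and sex as a covariate. Leaving out each mouse, or 14 libraries with markers of neighbouring tissue, was added after seeing the data. Plots came from matplotlib 3.10.9 (Python 3.11.15).

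Named genes were the 7 and members of the pathway lists. All of these were chosen with earlier results of these data known. Some list genes are counted here but not reported by name.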

Additional observations from a re-analysis of the deposited data

Results flagged for a closer look

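In the TDP-10+12 group, 1 of 10 mice lay far from the others for 2 genes by Dixon's test at 95%. Mouse 301, a male, had 114.9 CPM of Hmgcs1, and its gap to the next mouse (89.5 CPM) was 0.536 of the range of the group. The same mouse had 22.1 CPM of Idi1, with the next at 16.5 CPM and a gap of 0.538 of the range. These were 2 of 14 sets of values tested, the 7 genes in each of the groups of 10 mice, and chance flags about 1 in 20. The 2 flags come from 1 mouse and from genes that varied together. Its choroid plexus markers summed to 11.6 CPM, the lowest of its group, and its Tardbp was 142 CPM, the highest of its group.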

How the results depend on the processing

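No paired analysis was possible, because every mouse is a separate animal with its own number and the labels give no litter. The paper states that littermates were randomized to the cohorts, so litter is a factor that could not be taken into account. Of 203 values for the 7 genes against ctrl-PBS under the alternatives other than leaving out 1 mouse, 196 kept their direction and their side of the threshold. Without the 14 libraries with markers of neighbouring tissue, Lss changed sign to 0.00223 in TDP-PBS, 0.0338 in TDP-10+12 and 0.0366 in TDP-15, Hmgcs1 in TDP-15 against TDP-PBS to −0.0457 and Idi1 to 0.00706. Lss was at 0.0368 in females alone. With limma-voom, Idi1 stood at 0.0307 and Fdft1 at 0.00675 in TDP-15 against TDP-PBS. None of these values passed the threshold in any fit, and the cause was not tested. When each mouse was left out in turn, the log2 fold change of Lss in TDP-15 ran from −0.0391 to 0.0160 and in TDP-10+12 against TDP-15 from −0.0497 to 0.00550. In TDP-15 against TDP-PBS, Hmgcs1 ran from −0.0309 to 0.0527, Sqle from −0.0218 to 0.0499, Idi1 from −0.0740 to 0.0210 and Fdft1 from −0.0465 to 0.0170.

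The number of the 7 genes called was 6 in TDP-PBS in every fit, 4 to 6 in TDP-10+12 and 5 to 6 in TDP-15. Dhcr7 in TDP-10+12 lost its call without mouse 51 (adjusted p = 0.0505). Insig1 in TDP-10+12 lost it without any 1 of 19 mice, namely 41, 71, 110, 137, 146 and 193 of ctrl-PBS, 26, 42, 124, 196, 233 and 270 of TDP-PBS, and 47, 51, 242, 266, 277, 313 and 337 of TDP-10+12, with an adjusted p of 0.0516 to 0.123. Over all genes, TDP-10+12 against TDP-PBS had 1 call without a filter (Slc6a5), 2 with limma-voom (Sertm1 and Timp2) and 0 to 3 with 1 mouse left out, the 3 being AU023762, Sertm1 and Timp2 without TDP-PBS mouse 91. TDP-10+12 against TDP-15 had 1 call without a filter (Slc6a5) and 2 when only both groups were fitted (Nos1 and Timp2). These genes were named after their values were seen. Of the 10 genes most like the 7, 6 were shared when ranks were used and 0 in ctrl-PBS mice alone. In TDP-PBS, TDP-10+12 and TDP-15 alone, 0, 1 and 1 were shared.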
